A study of Oryctolagus cuniculus with 12 samples.

Results

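The arrays compared here were those of rabbit aortas under a lasting coarctation (CoA) and of aortas whose coarctation had been relieved (Corrected). Sample labels and the study's exclusion chose them: the 4 CoA arrays and Corrected replicates 1, 2 and 4, which are 7 of the 12 arrays in the series. Male New Zealand white rabbits were operated on at about 10 weeks of age, when a suture around the descending thoracic aorta set a pressure gradient of 20 mmHg. The suture was permanent silk in the CoA group and degradable Vicryl in the Corrected group, in which some narrowing is described to remain after the suture has gone. Control rabbits were non-experimental animals, so the 2 operated groups share a surgery that the Control group did not have. A 4 mm ring of thoracic aorta was taken at 32 weeks, and its total RNA was hybridized with a single dye to 1 Agilent rabbit array per rabbit. Corrected replicate 3, which the study left out, did not enter the comparison. The question was which genes differ between an aorta still exposed to the raised pressure and an aorta in which it was taken away.

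Arteries above a coarctation carry a raised and more pulsatile pressure. The aortic wall is built of smooth muscle cells held between elastic sheets and collagen, with endothelium on the inner face and loose tissue, small vessels, nerves and fat on the outer face. Smooth muscle tension is set by calcium that enters the cell or is let out of internal stores, and sustained pressure is known to alter contractile, matrix and inflammatory genes of the wall.

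Signals are given below as levels, which are log2 processed signals after quantile normalization. The contractile genes that define smooth muscle were bright on all 7 arrays, with ACTA2 (smooth muscle actin) at 14.47 to 16.40 and MYH11 (smooth muscle myosin) at 12.74 to 14.09. Between 55.8% and 69.7% of spots were well above background on the CoA arrays and between 61.8% and 68.5% on the 3 Corrected arrays, and 0 spots were saturated. All CoA arrays lay on 1 slide that held no other group, while the Corrected arrays lay on 2 other slides, so effects of the slide and of the suture cannot be told apart. Corrected replicate 2 shared its slide with Control replicates 1, 2 and 4, and Corrected replicates 1 and 4 lay on another. Where replicate 2 differs from the other Corrected arrays, rabbit and slide cannot be told apart either. The rings were bulk tissue, in which fewer cells of a type and less RNA per cell cannot be told apart.

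A probe met the criterion when its groups differed by more than 2-fold with an unadjusted p under 0.05 in limma. The detection rule, 8 or more of the 12 arrays, left 27283 probes to test, of which 392 met the criterion with a higher level in CoA (1.44%) and 363 with a lower level (1.33%). An unadjusted p under 0.05 was found for 1175 probes, fewer than the 1364.15 that this threshold would give on average if nothing differed. After Benjamini-Hochberg adjustment in limma 0 probes remained under 0.05, and the smallest adjusted p was 0.909. No gene named below therefore passed adjustment, and "higher" and "lower" describe measured values.

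A symbol could be given to 3368 probes of 1264 genes, and for 956 of these genes the brightest probe was tested. The criterion was met by 31 of the 956 genes (3.24%), against 2.77% of all probes. CoA was higher for 15 genes (1.57%) and lower for 16 (1.67%). The brightest probe was detected on all 7 arrays for 10 of the 15 higher genes and 10 of the 16 lower genes. Only 1 probe was tested for 6 of the 15 higher and 10 of the 16 lower genes, so those calls have no second probe beside them. In 16 of the 31 genes every array of one group lay above every array of the other, as in 36 of all 956 genes (3.77%) and 4.24% of all probes. When any single array was left out in turn, 7 of the 31 met the criterion each time, and 19 lost it without Corrected replicate 1. The median difference between the groups over the 956 genes was -0.03 on the log2 scale, with a median standard error of 0.44.

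**Figure D1:**
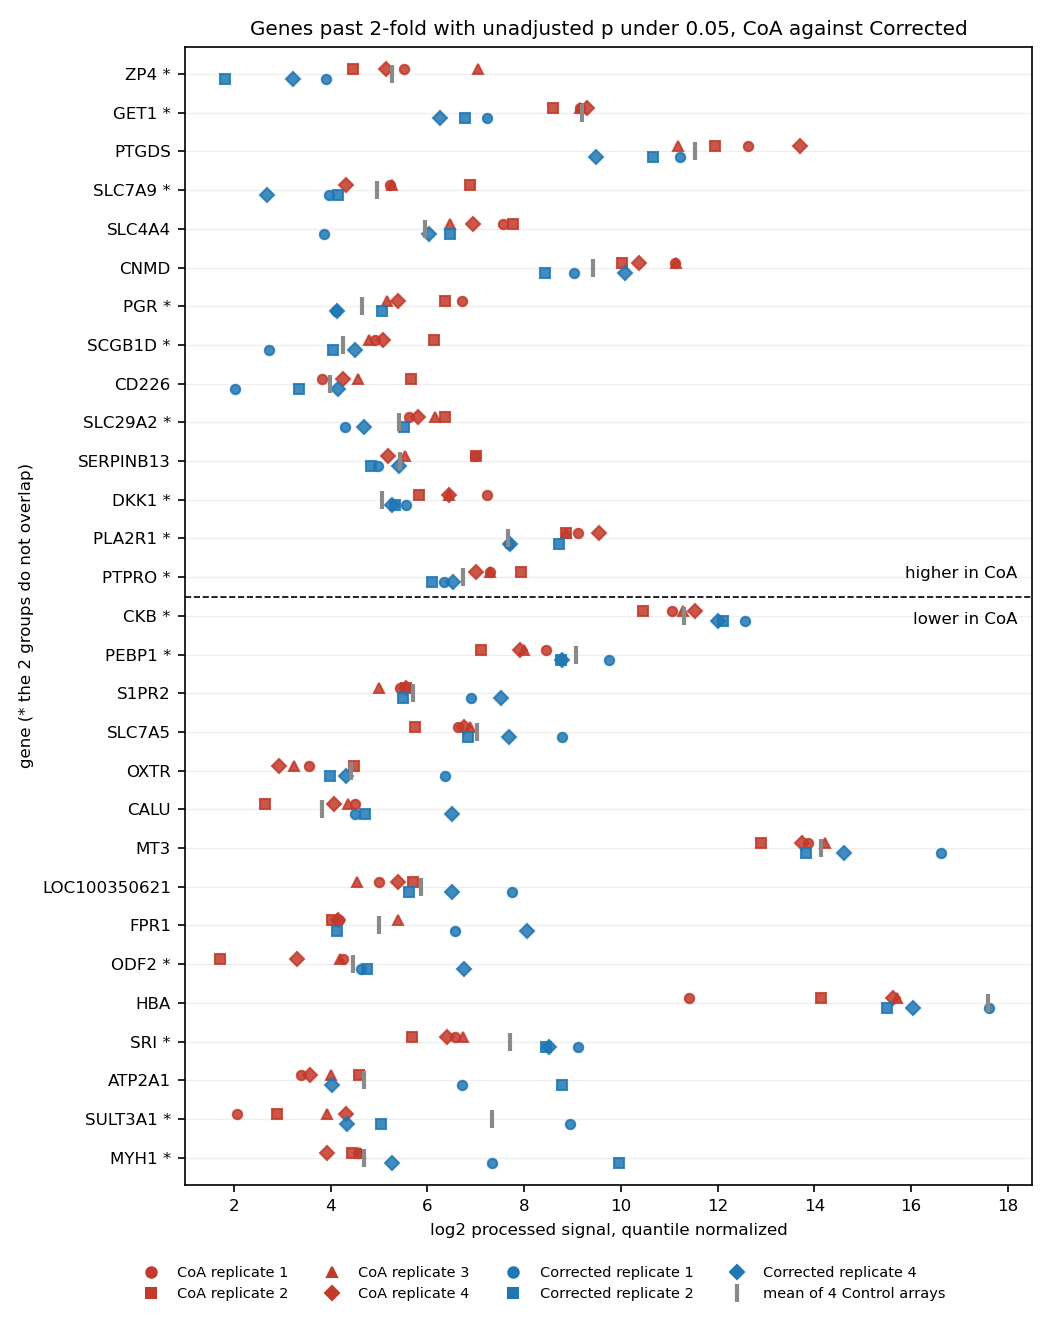
Levels (log2 processed signal, x axis) of 29 of the 31 genes that met the criterion, 1 row per gene. Red symbols are the 4 CoA arrays, blue symbols the 3 Corrected arrays and grey bars the mean of the 4 Control arrays, and an asterisk marks the 15 genes shown whose red and blue symbols do not overlap. GET1 and SRI show the clearest gaps relative to the spread of their arrays, while for MYH1 and ATP2A1 the blue symbols spread widely.

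GET1, a receptor of the endoplasmic reticulum that takes up tail-anchored membrane proteins, had the smallest p of the 31 genes. Its level was 9.16, 8.60, 9.16 and 9.31 on the CoA arrays and 7.24, 6.78 and 6.27 on the Corrected arrays. Every CoA array was above every Corrected array. CoA averaged 9.06 ± 0.31 (SD, n = 4), Corrected averaged 6.76 ± 0.49 (SD, n = 3), and the difference was 2.30 ± 0.38 (SE) on the log2 scale or 4.91-fold (limma, unadjusted p = 7.92e-05, adjusted p = 0.909). The exact two-sided permutation test gave 0.0571, the smallest p that 4 against 3 arrays allow. All 5 probes of GET1 were tested, all 5 met the criterion without overlap, and their differences lay between 2.07 and 2.65. The 4 Control arrays had levels of 8.66 to 9.91, around those of CoA, so the Corrected arrays were the low ones.

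SRI encodes sorcin, a calcium-binding protein that acts on the ryanodine receptors of internal calcium stores. It was at 6.58, 5.69, 6.75 and 6.41 on the CoA arrays and at 9.11, 8.46 and 8.53 on the Corrected arrays. The groups were well apart, with the CoA arrays low. The means were 6.36 ± 0.47 (SD, n = 4) for CoA and 8.70 ± 0.36 (SD, n = 3) for Corrected, which differ by -2.34 ± 0.52 (SE) or 5.07-fold (limma, unadjusted p = 0.000879, adjusted p = 0.909). All 4 probes met the criterion without overlap, with differences of -2.41 to -1.88. Control levels reached from 6.73 to 8.88 and so covered the gap between the groups. GET1 and SRI met the criterion under all 30 alternative settings tried for each.

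**Figure D2:**
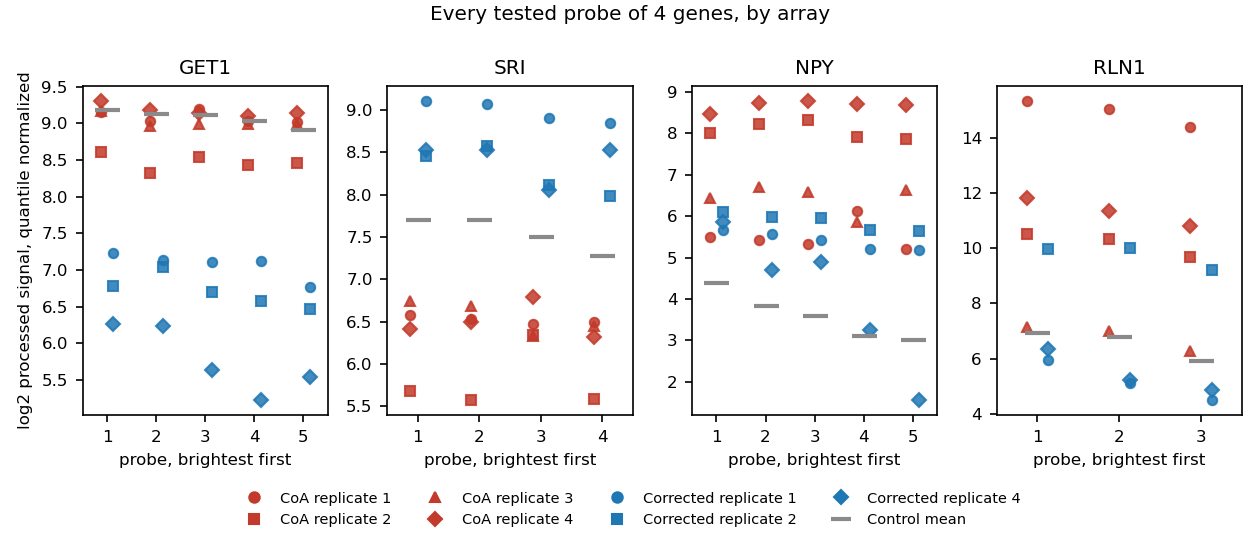
Levels (log2 processed signal, y axis) of every tested probe of GET1, SRI, NPY and RLN1, brightest probe first. Red symbols are CoA arrays, blue symbols Corrected arrays and grey bars the Control mean. The 5 probes of GET1 and the 4 of SRI separate the groups alike, whereas CoA replicate 1 lies among the Corrected arrays for most NPY probes and CoA replicate 3 does so for RLN1.

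The largest negative difference was that of a fast skeletal muscle gene. MYH1, a myosin heavy chain of fast fibres, was at 4.56, 4.45, 4.61 and 3.93 in CoA and at 7.33, 9.96 and 5.28 in Corrected. The CoA arrays lay together and below every Corrected array, and the Corrected arrays were far apart from each other. The difference was -3.14 ± 0.81 (SE), or 8.79-fold (limma, unadjusted p = 0.00262), and it was -1.92 without Corrected replicate 2 and -4.26 without Corrected replicate 4. Both tested probes met the criterion, and the gene did so under all 29 alternatives that could test it. The setting that asked for detection on all 12 arrays could not test it, nor ATP2A1 and FPR1 below. Background limits the precision of the folds of these dim genes. Control rabbits had 4.33 to 5.13, so every Corrected array compared stood above the unoperated rabbits, replicate 4 (5.28) only narrowly. Corrected replicate 3, which was left out, did not stand above them.

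ATP2A1, the calcium pump of the fast-fibre sarcoplasmic reticulum, was high on the same arrays. Its level was 3.39, 4.59, 4.02 and 3.57 in CoA and 6.71, 8.78 and 4.04 in Corrected. Corrected replicates 1 and 2 were high, and Corrected replicate 4 lay among the CoA arrays. The difference was -2.62 ± 0.84 (SE), or 6.13-fold (limma, unadjusted p = 0.00977), and all 3 tested probes met the criterion. It was -1.48 without Corrected replicate 2 and -3.85 without Corrected replicate 4, and the criterion was lost when each probe was tested without moderation. MYL1, a fast myosin light chain named after its values were seen, had too few detected arrays to be tested. It was not well above background on any CoA array and was so on 2 of the 3 Corrected arrays, where the levels were 5.30 and 8.57 in replicates 1 and 2. The mean was 2.29 in CoA and 5.56 over the 3 Corrected arrays, which include replicate 4 at its measured value although it was not detected there. On these means CoA was at least 3.57-fold lower, taking the dimmest detected signal of each CoA array where its own was dimmer. CASQ1, another fast muscle gene named after its values were seen, was not detected on any CoA array and was on 1 of the 3 Corrected arrays. Its bound taken the same way was 0.96-fold, so no difference can be given for it.

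Of the 26 fast skeletal muscle genes measured, 19 were tested. None was higher in CoA by the criterion and 2, MYH1 and ATP2A1, were lower, against 1.57% and 1.67% of all genes, with a median difference of -0.18 against -0.03 over all genes. ACTN3, the actinin of fast fibres, was lower in CoA without overlap by 1.77-fold and so missed the fold threshold (limma, unadjusted p = 0.0249). SLN, the small inhibitor of the calcium pump, differed by -0.98 (limma, unadjusted p = 0.081), and TNNI2, the fast inhibitory troponin, by -1.06. SLN met the criterion without CoA replicate 2 (-1.49) and TNNI2 without CoA replicate 3 (-1.43). Of the 19 tested genes, 7 were above and 12 below 0. The largest difference above 0 was that of CKM, muscle creatine kinase, at 1.83, a value set by a single array. Its level was 13.28 on CoA replicate 2 and 3.11 to 6.28 on the other 6 arrays, and without that array the difference was -0.38.

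CoA replicate 2 also held the highest levels of several heart and slow muscle genes. TNNC1, the troponin C of heart and slow fibres, was at 16.21 there against 11.56 to 12.39 on the other CoA arrays. CASQ2, the calcium store protein of the heart, was at 14.50 there and RYR2, the calcium release channel of the heart, at 14.01. CKMT2, the mitochondrial creatine kinase of striated muscle, was at 14.17 on this array and at 5.08 or below on the other 6. None of the 11 tested genes of the heart and slow muscle list met the criterion, which 3.24% of all genes did. Of these 11, 9 were above 0, with a median difference of 0.52 against -0.03 over all genes. The mean level of the 19 fast muscle genes was 5.96 to 8.11 in CoA, 6.63 to 7.35 in Corrected and 6.31 to 6.93 in Control, and its part in other results was not tested. Without CoA replicate 2, MYH1 and ATP2A1 still met the criterion.

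**Figure D3:**
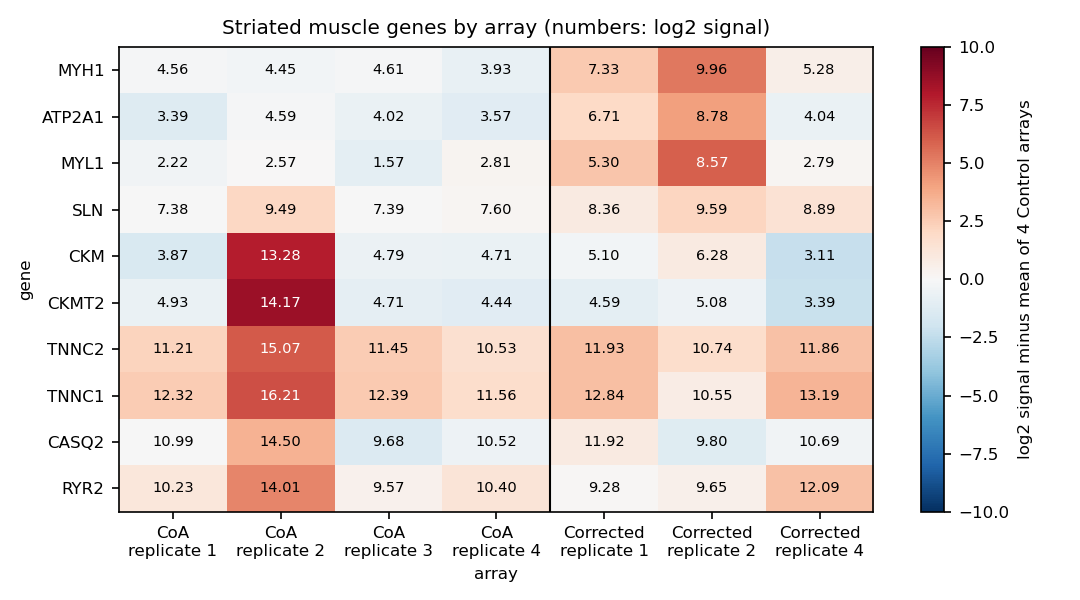
Levels of 10 striated muscle genes on the 7 arrays, printed as log2 processed signals in the cells and coloured by the difference from the Control mean. MYH1, ATP2A1 and MYL1 are high on Corrected replicates 1 and 2, whereas CKM, CKMT2, TNNC1, CASQ2 and RYR2 are highest on CoA replicate 2.

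Of 12 tested smooth muscle genes 0 met the criterion, which 3.24% of all genes did, 6 were above and 6 below 0, and the median difference was -0.04. MYH11 differed by -0.45 and TPM2, a tropomyosin, by -0.96. Among the 11 tested matrix genes 0 met the criterion either, with SPP1 (osteopontin) at 0.92 and COL1A2, a chain of type I collagen, at 0.46. Of the 23 tested genes of calcium stores, pumps and channels ATP2A1 alone met it.

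Of the 3 tested red cell genes 1 was lower in CoA by the criterion, against 1.67% of all genes. HBA, the haemoglobin alpha chain, was at 11.41, 14.13, 15.72 and 15.62 in CoA and at 17.61, 15.51 and 16.04 in Corrected. CoA replicates 1 and 2 lay below all other arrays, and CoA replicates 3 and 4 were within the Corrected range. The difference was -2.16 ± 0.92 (SE), or 4.48-fold (limma, unadjusted p = 0.0381), and all 3 probes met the criterion. HBB2, a beta chain, was at 14.87 and 15.11 on CoA replicates 1 and 2 and at 17.49 to 17.64 on the other 5 arrays. CA2, the carbonic anhydrase of red cells, differed by -0.91 (limma, unadjusted p = 0.349) and by 0.28 without Corrected replicate 1. With 1 CoA or Corrected array left out its difference lay between -1.97 and 0.28, and it met the criterion without Corrected replicate 4. HBA lost the criterion without CoA replicate 1 (-1.23), CoA replicate 2 (-2.13), Corrected replicate 1 (-1.55) or Corrected replicate 4 (-2.34). The mean level of the 3 tested red cell genes was 11.02 to 13.44 in CoA, 12.91 to 14.97 in Corrected and 14.10 to 14.90 in Control, and its part in other results was not tested.

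Genes of inflammation leaned toward lower levels in CoA without any that met the criterion, which 3.24% of all genes did. Of 28 tested members 21 were below 0 and 7 above, and the median difference was -0.20 against -0.03 over all genes. SAA3, an acute-phase serum amyloid, was at 11.43, 9.65, 11.21 and 11.28 in CoA and at 14.79, 11.82 and 12.11 in Corrected. The groups did not overlap, but the spread within Corrected was wide, and the difference of -2.01 ± 0.96 (SE) had an unadjusted limma p of 0.0604. It was -1.07 without Corrected replicate 1, and it met the criterion under 9 of 30 alternatives. Among these were leaving out Corrected replicate 2 (-2.56) or Control replicate 1 or 2, array weights, and a fit of the CoA and Corrected arrays alone. S100A9, a calcium-binding protein of neutrophils, was at 13.32 on Corrected replicate 4 and at 4.90 and 8.89 on Corrected replicates 2 and 1. IL1B, a cytokine of activated macrophages, was likewise highest on Corrected replicate 4, at 13.36. The mean level of the 28 genes was 8.47 to 8.95 in CoA and 8.19 to 9.97 in Corrected, so that Corrected held both ends of the range.

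FPR1, the receptor by which neutrophils sense bacterial formyl peptides, met the criterion. It was at 4.18, 4.02, 5.39 and 4.16 in CoA and at 6.56, 4.12 and 8.06 in Corrected. Corrected replicate 2 lay among the CoA arrays, and Corrected replicate 4 was the highest. The difference was -1.81 ± 0.73 (SE), or 3.51-fold (limma, unadjusted p = 0.0303). The criterion was lost without Corrected replicate 4 (-0.91), Corrected replicate 1 (-1.65) or CoA replicate 1, 2 or 4 (-1.73, -1.67 and -1.72). Among 9 tested macrophage genes and 5 tested T cell genes 0 met the criterion, which 3.24% of all genes did. CD226, an activating receptor of T and natural killer cells that was on neither of these lists, was higher in CoA by 1.40 ± 0.53 (SE), with overlap, and by 0.83 without Corrected replicate 1 or 1.04 without CoA replicate 2, which no longer met the criterion.

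**Figure D4:**
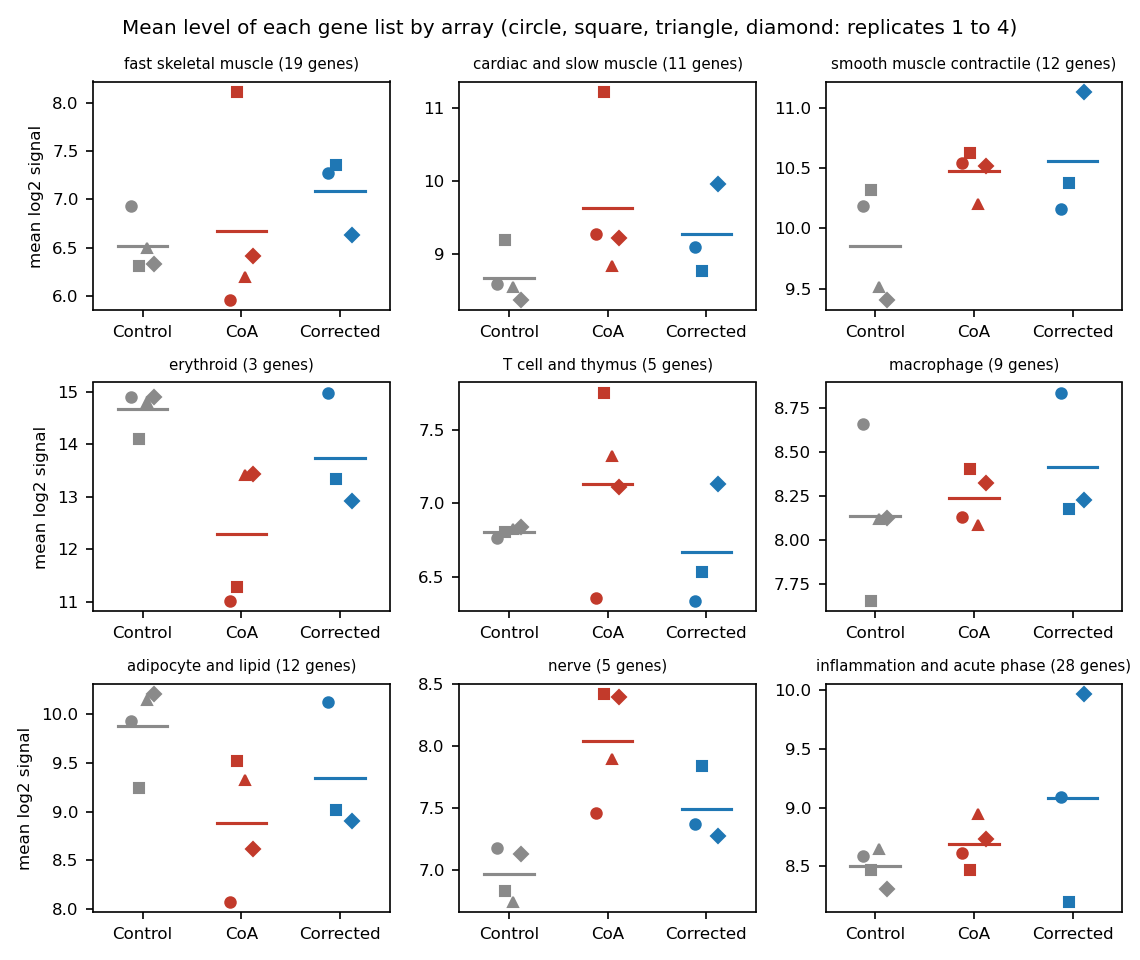
Mean level (log2 processed signal, y axis) over the tested genes of 9 lists on each array. Grey, red and blue symbols are Control, CoA and Corrected arrays, and lines are group means. CoA and Corrected overlap in all 9 lists, CoA replicate 2 stands high for striated muscle and Corrected replicate 4 for inflammation.

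Fat genes were lower in CoA for 10 of 12 tested members, with a median difference of -0.42 against -0.03 over all genes. None of the 12 met the criterion, which 3.24% of all genes did. ADIPOQ, the fat cell hormone adiponectin, was at 1.45, 3.35, 5.89 and 3.36 in CoA and at 7.27, 4.72 and 4.06 in Corrected. The groups overlapped, and Corrected replicate 1 was the highest of the 7 arrays. The mean level of the 12 genes was 10.13 on that array, 8.90 and 9.02 on the other Corrected arrays and 8.07 to 9.52 on the CoA arrays. SULT3A1, a sulfotransferase, was also highest there. Its level was 2.06, 2.89, 3.93 and 4.31 in CoA and 8.96, 5.04 and 4.34 in Corrected, which do not overlap although the nearest arrays were 4.31 and 4.34. The difference was -2.82 ± 1.02 (SE), or 7.05-fold (limma, unadjusted p = 0.0187), with 1 of 4 CoA arrays detected. SULT3A1 was the single call among 45 tested genes of drug and hormone metabolism, against 3.24% of all genes. The criterion was lost without CoA replicate 1 (-2.41) or Corrected replicate 1 (-1.40).

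The remaining reported genes that were lower in CoA were of several kinds. CKB, the creatine kinase of brain and smooth muscle, had a tight spread at 11.06, 10.46, 11.28 and 11.53 in CoA and 12.56, 12.12 and 12.01 in Corrected. The groups did not overlap, and the difference was -1.15 ± 0.30 (SE), or 2.22-fold (limma, unadjusted p = 0.00251). Control levels of 11.17 to 11.55 lay with CoA. PEBP1, an inhibitor of the Raf kinase, also did not overlap, at 7.12 to 8.46 in CoA and 8.76 to 9.76 in Corrected. ODF2, a protein of sperm tails and centrioles, was at 1.72 to 4.26 in CoA and 4.64 to 6.77 in Corrected, with 1 of 4 CoA arrays detected. Without CoA replicate 2 the difference of CKB was -0.94 and that of PEBP1 -0.98, and without Corrected replicate 1 they were -0.98 and -0.90, short of 2-fold. ODF2 lost the criterion without Corrected replicate 4 (-1.32).

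A further 6 genes lower in CoA overlapped between the groups, with differences of -1.47 to -1.26. They were the receptors OXTR (oxytocin) and S1PR2 (sphingosine 1-phosphate), the large neutral amino acid carrier SLC7A5, the calcium-binding protein CALU of the secretory pathway, the metallothionein MT3 and LOC100350621. In all but CALU, Corrected replicate 2 was the lowest Corrected array. MT3 was at 16.61 on Corrected replicate 1 and at 12.89 to 14.62 on the other 6 arrays, and metallothionein transcripts are alike enough that its probes may also bind those of its relatives. Without Corrected replicate 1 the differences were -0.54 for MT3, -0.60 for OXTR, -0.76 for SLC7A5, -0.91 for LOC100350621 and -1.13 for S1PR2, and none of these met the criterion. CALU lost it when Corrected replicate 4 (-0.70), CoA replicate 2 (-0.92) or CoA replicate 4 (-1.40) was left out, and it also lost the criterion without Control replicate 1, 2 or 3 (-1.34 each), which enter through the shared estimate of spread. Leaving out a CoA array ended the call of MT3 (-1.40, -1.07 and -1.36 without replicates 1, 2 and 4), OXTR (-1.34, -1.24 and -1.13 without replicates 1, 3 and 4) and SLC7A5 (-1.01 without replicate 2). Without Corrected replicate 4, S1PR2 was at -0.82.

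Among the 15 genes higher in CoA by the criterion, ZP4 had the largest difference. This glycoprotein is known from the coat of the egg. It was at 5.51, 4.47, 7.04 and 5.15 in CoA and at 3.90, 1.82 and 3.22 in Corrected. The groups did not overlap, and the Control mean of 5.27 lay near that of CoA. The difference was 2.57 ± 0.62 (SE), or 5.92-fold (limma, unadjusted p = 0.00171), with 1 of 3 Corrected arrays detected. The other probe of ZP4 was not well above background on any Corrected array and was at least 3.96-fold higher in CoA.

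Of 53 tested carriers and pumps 24 were above and 29 below 0, with a median difference of -0.12, and 3 were higher by the criterion against 1.57% of all genes. The carriers SLC7A9 (cystine and basic amino acids), SLC4A4 (sodium and bicarbonate) and SLC29A2 (nucleosides) differed by 1.83, 1.73 and 1.15, and without Corrected replicate 1 SLC4A4 was at 0.93 and SLC29A2 at 0.88, short of 2-fold. The list's members lower by the criterion were SLC7A5 and ATP2A1. Only 1 of the 2 tested probes of SLC7A9 and 1 of the 4 of SLC4A4 met the criterion, with the others between -0.01 and 1.03. PTGDS, which makes prostaglandin D2, was at 12.64, 11.95, 11.19 and 13.70 in CoA and at 11.22, 10.67 and 9.49 in Corrected, a difference of 1.91 ± 0.69 (SE). CoA replicate 3 lay just below Corrected replicate 1, and the criterion was lost without CoA replicate 4 (1.46) or Corrected replicate 4 (1.42).

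PGR, the progesterone receptor, was at 5.18 to 6.71 in CoA and 4.10 to 5.07 in Corrected, without overlap, and its other probes differed by 0.31 and 0.98. PLA2R1, a receptor for secreted phospholipase A2, was at 9.12, 8.87, 8.87 and 9.55 in CoA and at 7.69, 8.73 and 7.71 in Corrected. The groups did not overlap, and 2 of 3 probes met the criterion. DKK1, a secreted inhibitor of Wnt signalling, was at 5.83 to 7.23 in CoA against 5.28 to 5.57 in Corrected and 4.97 to 5.23 in Control, so CoA was above both other groups. PLA2R1 was at 0.89 without Corrected replicate 1, at 0.90 without Corrected replicate 4 and at 0.92 without CoA replicate 4, and DKK1 was at 0.84 without CoA replicate 1. Among the 15 genes higher in CoA by the criterion, PLA2R1 and DKK1 were those whose Control mean lay below the Corrected mean.

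PTPRO, a receptor tyrosine phosphatase, was at 7.01 to 7.94 in CoA and 6.11 to 6.53 in Corrected, and SCGB1D, a secretoglobin, at 4.79 to 6.15 and 2.73 to 4.51. CNMD, the cartilage protein chondromodulin, was 2.80-fold and SERPINB13, a serpin, 2.14-fold higher, both with overlap. PTPRO lost the criterion without CoA replicate 2 (0.87) or Corrected replicate 2 (0.95), and SCGB1D without Corrected replicate 1 (0.95). CNMD lost it without CoA replicate 1 (1.33), CoA replicate 3 (1.32), Corrected replicate 1 (1.41) or Corrected replicate 2 (1.11). SERPINB13 lost it without CoA replicate 1 (0.83), CoA replicate 2 (0.82), Corrected replicate 1 (1.06), Corrected replicate 2 (0.98) or Control replicate 1, the last with the difference itself unmoved. Over all 15 genes higher in CoA the Control mean lay between the groups for 12 and nearer Corrected for 10, and over the 16 lower genes it lay between them for 13 and nearer CoA for 9.

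A further 24 genes met the criterion with another probe than their brightest, and 5 of them did so with 2 or more probes. These 5 were chosen after their values were seen. NPY, the peptide transmitter of sympathetic nerves, was at 5.49, 8.02, 6.44 and 8.48 in CoA and at 5.66, 6.10 and 5.87 in Corrected by its brightest probe, with a difference of 1.23 ± 0.60 (SE) and an unadjusted limma p of 0.065. CoA replicates 2 and 4 were the high arrays, and CoA replicate 1 lay below the Corrected arrays. Of its 5 probes 4 met the criterion, with differences up to 2.98. The brightest probe met it without CoA replicate 1 (1.77) or CoA replicate 3 (1.45), and its difference was 0.77 without CoA replicate 4. Control levels of 4.08 to 4.62 were below all 7 arrays.

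RLN1, the hormone relaxin, varied widely within both groups. It was at 15.33, 10.50, 7.14 and 11.81 in CoA and at 5.96, 9.97 and 6.37 in Corrected. CoA replicates 1, 2 and 4 were above every Corrected array, and CoA replicate 3 was below Corrected replicate 2. The difference of 3.76 ± 1.76 (SE) had an unadjusted limma p of 0.0551, and 2 of 3 probes met the criterion at 4.09 and 4.15. By the brightest probe it was 2.39 without CoA replicate 1 and met the criterion without CoA replicate 3 (5.12) or Corrected replicate 2 (5.03). PTGER3, a receptor for prostaglandin E2, met it with 2 of 3 probes at -3.41 and -3.57 but differed by -1.29 with its brightest probe, and CoA replicate 3 was high with all 3. By the brightest probe it met the criterion without that array (-2.04) and differed by -0.44 without CoA replicate 1. ITGB3, the integrin chain of platelets, met it with 2 of 4 probes at -1.16 and -1.18, and LOC100008921 with 2 of 6 at -1.41 and -1.57.

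Other lists held few or no genes that met the criterion, which 3.24% of all genes did. It was met by 0 of 44 tested ion channels, 0 of 18 genes of endothelium and clotting, 0 of 10 matrix proteases and inhibitors, 0 of 10 redox and stress genes and 0 of 11 growth factors and their receptors. Of 39 kinases, phosphatases and phosphodiesterases 1 was higher, PTPRO, and 1 lower, of 20 receptors for vasoactive agents and transmitters OXTR was lower, and of 20 genes of energy metabolism CKB was lower. The median differences of these lists lay between -0.47 for the matrix proteases and 0.25 for the receptors. TIMP4, an inhibitor of metalloproteinases, was 4.01-fold lower in CoA with overlapping groups (limma, unadjusted p = 0.0657), and its log2 difference was -1.11 without Corrected replicate 1 and -2.51 without CoA replicate 3, where it met the criterion, as it did without Control replicate 2. Of the 7 tested genes that the study names, a list chosen on these samples and so no independent evidence of direction, MYH1 and ATP2A1 were lower in CoA, and the median difference was -0.88.

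Reference genes differed by less than 2-fold. ACTB, beta actin, was at 17.63 to 17.84 in CoA and 17.43 to 17.89 in Corrected, a difference of 0.08. GAPDH, an enzyme of glycolysis, differed by -0.89 (limma, unadjusted p = 0.215) and was at 10.49 to 12.38 in CoA and 11.82 to 13.09 in Corrected. Another background correction was normexp on the median signals, with an offset of 50 added. With it 9 genes met the criterion, among them 8 of the 31: MYH1, ATP2A1, SRI, HBA, MT3, GET1, CNMD and PTGDS. Adding a constant narrows log2 differences at dim probes, and the median processed signal was 20.4 to 59.7 on the 7 arrays. How much of the drop comes from the offset was not tested.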

How the data were processed

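The authors deposited Agilent Feature Extraction 11.0.1.1 output for 12 single-dye arrays: the processed signal is a background-subtracted intensity without normalization between arrays, and the deposited median intensities of spots and local background were uncorrected. Log2 processed signals were quantile normalized over 12 arrays. Control spots and outlier spots were left out, and spots of a probe were averaged (43603 probes). Probes flagged positive and significant and well above background on at least 8 arrays were tested in limma 3.58.1 (R 4.3.3) with 11 arrays in 1 model (4 Control, 4 CoA, 3 Corrected). All groups shared the estimate of spread, and the contrast was CoA minus Corrected. P-values were two-sided and adjusted by Benjamini-Hochberg over all probes tested. An exact permutation test was run per named gene. Symbols were matched by accession to the RefSeq table of mOryCun1.1. That assembly differs from the build of the array design, so positions are not given. The brightest probe stood for a gene. Named genes were the 15 largest differences each way that met the criterion, the largest in each list, genes the study names and reference genes. Of the genes that met the criterion, 2 are not reported here. Members and lists were chosen with earlier results of these data known. Alternatives changed the arrays, normalization, background correction, detection, test and blocks, and left out each array. Statmod 1.5.0 fitted the slide block. The few arrays, and background at dim probes, limit the precision. The scripts were tested on simulated data.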

Additional observations from a re-analysis of the deposited data

Results flagged for a closer look

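Among 105 named genes, the highest or lowest array of CoA or Control stood apart from the other 3 by Dixon's 95% limit for 16 genes. Chance flags about 1 group in 20, and 2 groups were examined for each gene, so by chance more than 1 gene in 20 would be flagged. Many of these genes were also named for their large differences. CoA replicate 2 was the array in 10 cases, and was highest for CKMT2 (14.17), CKM (13.28), SLN (9.49), CTLA4 (8.55), CYBA (7.75) and UCP1 (3.65). It was lowest for COL1A2 (16.60), PPIA (13.30), SAA3 (9.65) and CA2 (4.61). CoA replicate 3 was highest for FPR1 (5.39) and lowest for KCNS3 (3.23), and CoA replicate 1 was lowest for MMP9 (4.51). Control replicate 2 was lowest for HBA (16.84), HP (14.88), CYBA (6.62) and SLC12A4 (6.29), and Control replicate 1 was highest for CKMT2 (8.38).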

How the results depend on the processing

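Counts are given as probes higher, probes lower and genes (main setting 392, 363 and 31). They were 642, 617 and 67 with array weights, 50, 79 and 9 with normexp, 690, 771 and 51 with no detection filter, 154, 163 and 19 with detection on all 12 arrays, 669, 678 and 48 with the positive flag only, 141, 140 and 13 without moderation, and 603, 603 and 54 with slide as a random block (correlation -0.15). With all 12 arrays 681 probes were lower. With the replicate number as a block 478 were higher and 680 lower, with 50 genes. Deviations of same-numbered CoA and Corrected arrays correlated at -0.13, -0.44 and -0.21, so the numbers do not pair the arrays. Without 1 array in turn the counts ranged from 325 to 955, 307 to 824 and 22 to 68. The highest followed from leaving out Corrected replicate 2. Genes numbered 49 without CoA replicate 3 and 50 without Corrected replicate 4. Without Corrected replicate 4, 665 probes were higher. Probes with an adjusted p under 0.05 numbered 0 to 1 over these, with 1 each when CoA replicate 1 or Corrected replicate 4 was left out. Leaving out CoA replicate 2 and Corrected replicate 4 together, a choice made after seeing the data, also gave 1, and 15 of the 31 genes were called again. The share of calls that were higher in CoA was 51.9%, but 41.4% with all 12 arrays, 38.8% with normexp, 41.3% with the replicate block, 61.7% without Corrected replicate 4 and 42.1% when CoA replicate 2 was left out. The cause was not tested. No slide held both groups, so no within-slide value exists.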

Other observations

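Corrected replicate 3, the array that the study left out, had 45.6% of its spots well above background. At the 31 genes that met the criterion without it, its level lay on the Corrected side of the midpoint between the group means for 12, of which 8 were lower and 4 higher in CoA. It was at 6.41 for GET1, within the Corrected range, at 6.79 for SRI, nearer the CoA arrays, and at 4.31 for MYH1, within the CoA range.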
